A study of Homo sapiens with 18 samples.

Results

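The genes described here are the ZNF genes of chromosome 19: protein-coding genes whose symbol starts with ZNF and which the GENCODE 29 annotation of GRCh38 places on that chromosome. The annotation lists 247 of them, and 186 had at least 10 reads in at least 3 libraries. These 186 are the members, out of 63677 identifiers counted and 15179 genes tested, and all 186 entered the tests. Of the other 61, 8 had no read in any library. Just inside the read filter were ZNF888, ZNF665 and ZNF233, whose third-highest library held 11, 12 and 14 reads. Just outside were ZNF600 with 9, and ZNF418 and ZNF528 with 8 each.

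Polyadenylated RNA was sequenced from HAP1, an established human cell line with a nearly haploid genome that comes from a chronic myeloid leukaemia. Cells of 3 genotypes were compared: the parental line (WT), ATG7KO and RB1CC1KO. Each was kept in Iscove's medium with 10% fetal calf serum (full medium) or moved for 6 h to Earle's balanced salt solution (EBSS), which lacks amino acids and serum. The 6 groups had 3 libraries each, described in the labels as independent biological replicates. The labels give 1 line per knockout, so the effect of a knockout and any other difference between the lines cannot be told apart. ATG7 RNA was lower in ATG7KO than in WT in full medium (log2 fold change -1.95 ± 0.12). On EBSS it rose in ATG7KO from 4.02 to 10.4 CPM (counts scaled to library size; 1.38 ± 0.13, adjusted p = 5.37e-11 in edgeR's test), so that after EBSS the gap from WT was -0.62 ± 0.12. RB1CC1 RNA was higher in the RB1CC1KO-labelled line (0.58 ± 0.07), so that RNA level gives no check of that label. Of 8 haematopoietic markers, GATA1, PTPRC and SPI1 had no read in any full-medium group. The summed level of all 8 ranged from 57.6 to 68.4 CPM in WT in full medium, 19.98 to 20.7 in ATG7KO and 71.1 to 78.5 in the RB1CC1KO-labelled line. After EBSS it was lower in each line, at 27.8 to 32.8, 6.15 to 8.59 and 27.8 to 29.8 CPM. The summed level of 4 epithelial markers in full medium was 87.7 to 98.8 CPM in WT, 54.7 to 57.8 in ATG7KO and 71.8 to 81.6 in the RB1CC1KO-labelled line, and after EBSS 102.2 to 107.5, 51.1 to 58.0 and 85.2 to 95.7. That of 5 fibroblast markers lay between 13.1 and 31.3 CPM in all groups. The part of these differences in the results on EBSS and on the lines was not tested. Reads in genes per library ranged from 4892072 (ATG7KO EBSS replicate 3) to 26005942 (RB1CC1KO EBSS replicate 2).

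Most ZNF proteins of this chromosome carry an array of C2H2 zinc fingers, which read DNA sequence, behind a KRAB domain. The KRAB domain recruits the corepressor TRIM28, and through it the histone methyltransferase SETDB1 and heterochromatin proteins, so that the bound site is silenced. Many of these proteins bind retroelements, and the genes lie in clusters that grew by tandem duplication. A pattern for the KRAB A box was found in the first 150 residues of 152 members, and 34 members had no match to it. A missing match does not show that a gene lacks the domain.

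Promoter sequences from RefSeq (GRCh38.p14) were matched for 166 of the 186 members. Of 6 motifs searched on both strands in the window from 250 bases before to 50 bases after the start, the motif known for the factor ZNF143 (ACTACA, any 2 bases, then TCCC) was held by 30 of the 166 (18.1%) and by 4.03% of the 10203 tested protein-coding genes with such a window. CCGGAAG, the core bound by ETS factors, was held by 45.8% of members and 18.8% of all. The NRF1 motif (GCGCA, any base, GCGC) was held by 12.7% and 11.5%. TGACGTCA, the cyclic AMP response element, was held by 4.22% and 3.27%. The Kaiso motif (TCTCG then CGAGA) was held by 1.20% and 0.872%, and TGATGNAAT, the element bound by ATF4, by 1.20% and 0.431%. A match is a description of the letters and not a bound site. Windows of 30 bases around the match to the ZNF143 motif are printed for the 9 members named by the rule that hold it, with the match in capitals, 5′ to 3′ on the strand that holds it. The search fixes all but 2 of the capital letters, so that the free letters and the flanks are what can differ. After EBSS in WT the RNA of ZNF546, ZNF112, ZNF283, ZNF606 and ZNF358 fell, that of ZNF568 and ZNF628 rose, and that of ZNF345 (log2 fold change 0.26) and ZNF146 (-0.07) did not pass the test.
ZNF546 (chr19:39997024-39997053, plus strand): cggctgtggACTACATTTCCCagaagcccc
ZNF112 (chr19:44356778-44356807, plus strand): ggctcccaaACTACATTTCCCagaattcct
ZNF283 (chr19:43827250-43827279, plus strand): ccgctgtggACTACATTTCCCagaagtctc
ZNF606 (chr19:58002834-58002863, minus strand): ccgcctggaACTACAGCTCCCagcagaccc
ZNF358 (chr19:7516053-7516082, plus strand): cgcgggcgaACTACAAGTCCCagcagctcc
ZNF345 (chr19:36850781-36850810, plus strand): gctttctggACTACACTTCCCagaagcctc
ZNF146 (chr19:36214964-36214993, minus strand): aggccttggACTACATTTCCCttgaggctt
ZNF568 (chr19:36916082-36916111, minus strand): ccgctctggACTACATTTCCCagagggcct
ZNF628 (chr19:55476480-55476509, plus strand): actgggagaACTACAACTCCCaggatgccg
The median window of the members held 21 CpG dinucleotides and 61% G and C, against 27 and 65.7% over all tested protein-coding genes. The 250 bases before the RefSeq start are printed for ZNF329 and ZNF492, because their RNA differed several-fold between lines, with each CpG in capitals. They lie outside the GENCODE exons of the same strand, and both were picked after their values were seen. The stretch of ZNF329 lies within the gene span of GENCODE (chr19:58126252-58155110), downstream of the outermost start annotated there.
ZNF329 (chr19:58150790-58151039, minus strand): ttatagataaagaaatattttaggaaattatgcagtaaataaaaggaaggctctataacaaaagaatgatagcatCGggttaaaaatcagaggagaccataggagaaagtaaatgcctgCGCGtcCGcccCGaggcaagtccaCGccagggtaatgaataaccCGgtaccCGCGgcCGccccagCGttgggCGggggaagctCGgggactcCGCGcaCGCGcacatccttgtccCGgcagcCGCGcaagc
ZNF492 (chr19:22634074-22634323, plus strand): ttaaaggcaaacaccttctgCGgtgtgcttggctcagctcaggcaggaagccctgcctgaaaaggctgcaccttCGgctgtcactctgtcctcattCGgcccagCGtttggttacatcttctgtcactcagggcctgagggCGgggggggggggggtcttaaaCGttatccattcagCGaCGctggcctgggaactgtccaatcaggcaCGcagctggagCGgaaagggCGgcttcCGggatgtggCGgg
The printed stretch of ZNF329 held 20 CpG and that of ZNF492 held 13. DNA methylation was not measured in these samples.

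The members were expressed at low levels. Per kilobase of exon, the median member stood at 2.17 CPM per kb in WT in full medium, against 4.56 for all genes tested. The highest was ZNF146, a protein built almost wholly of zinc fingers, at 42.0 CPM per kb. It was followed by ZNF428 at 19.4, ZNF317 at 14.7, ZNF581 at 14.1 and ZNF121 at 13.3. The summed level of all members in full-medium WT libraries was 2891 ± 94.0 CPM (SD, n = 3), and 2338 ± 25.8 after EBSS. It went from 2920 ± 69.1 to 2367 ± 89.2 in ATG7KO and from 2941 ± 124 to 2091 ± 53.8 in the RB1CC1KO-labelled line. In each line the 3 starved libraries lay below the 3 fed ones, and the summed level of the 3 lines in full medium overlapped.

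After EBSS the RNA of most ZNF genes of chromosome 19 was lower in WT cells. Of the 186 members 112 fell and 24 rose. The call needed a Benjamini-Hochberg adjusted p under 0.05 over all 15179 genes, from the quasi-likelihood test of edgeR. Over all genes tested 32.1% fell and 32.4% rose. The median member had a log2 fold change of -0.49, against -0.02 for all genes. At least 2-fold falls were called for 53 members and rises for 6, where 9.93% and 9.75% of all genes passed in the same way. With upper-quartile in place of TMM scaling the median of all genes in WT moved to -0.17 and that of the members to -0.64, and the share of rises among all calls went from 50.3% to 37.4%. The members then numbered 126 lower and 17 higher. Changes are therefore relative to the bulk of the transcriptome, and in bulk RNA fewer cells expressing a gene and less of its RNA per cell cannot be told apart.

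The same counts and medians are given for related sets of genes, without a test. Of 224 tested ZNF genes on other chromosomes, 103 fell and 63 rose in WT, with a median of -0.18. The other 755 tested protein-coding genes of chromosome 19 had 214 lower and 228 higher, with a median of -0.01. Of 33 genes of related C2H2 families named ZFP, ZSCAN, ZIM, ZIK or ZKSCAN, 23 fell and 5 rose, with a median of -0.38.

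**Figure D1:**
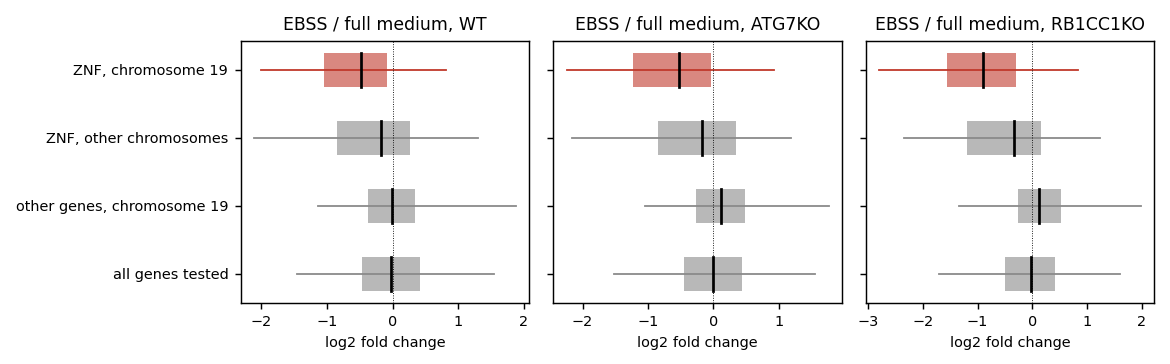
Log2 fold change of EBSS against full medium (horizontal axis) in the 3 lines for ZNF genes of chromosome 19, ZNF genes of other chromosomes, other protein-coding genes of chromosome 19 and all genes tested. Bars span the 25th to 75th percentile, lines the 5th to 95th, and the black mark is the median, which for the chromosome 19 ZNF genes lies at -0.49, -0.53 and -0.89.

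ZNF526 had the lowest log2 fold change in WT among members named by the rule. Its libraries stood at 26.8, 27.9 and 26.5 CPM in full medium and at 4.33, 3.57 and 4.61 CPM after EBSS. The groups lay far apart, with a log2 fold change of -2.70 ± 0.15 (adjusted p = 5.68e-17). The error of a fold change here is its size divided by the square root of the F statistic. ZNF526 (chr19:42220271-42228201, plus strand) has 13 zinc fingers by pattern and no match to the KRAB pattern.

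KRAB-pattern genes made up the rest of the largest falls. ZNF649 (chr19:51889224-51905040, minus strand), a KRAB repressor with 10 fingers, went from 11.1, 11.01 and 12.6 CPM to 2.55, 1.81 and 1.67 CPM. Its log2 fold change was -2.53 ± 0.19 (adjusted p = 5.8e-14). ZNF780B (chr19:40028260-40056209, minus strand), with 21 fingers, went from 15.7, 17.5 and 21.7 CPM to 3.76, 3.13 and 3.08 CPM (-2.46 ± 0.14, adjusted p = 5.72e-17). In both genes every starved library lay below every fed one. ZNF324B (-2.43), ZNF17 (-2.31), ZNF114 (-2.31), ZNF441 (-2.14), ZNF543 (-2.11), ZNF546 (-2.09) and ZNF841 (-2.01) also fell at least 4-fold on this scale. ZNF114 has 3 fingers behind its KRAB pattern and ZNF546 has 22, so that the large falls spanned short and long arrays.

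The members that rose in WT were partly of another kind. ZNF581 (chr19:55635459-55645622, plus strand), a short protein with 4 fingers and no KRAB match, went from 29.3, 21.5 and 22.8 CPM to 47.3, 43.5 and 53.0 CPM (log2 fold change 0.98 ± 0.11, adjusted p = 9.63e-09). It overlaps ZNF580 on the same strand, and reads in the shared part cannot be assigned with certainty. ZNF628, with 16 fingers and no KRAB match, went from 9.06, 6.75 and 7.56 CPM to 15.6, 13.5 and 21.1 CPM (1.12 ± 0.17, adjusted p = 1.45e-06). ZNF536, known as a brain-enriched repressor of neuronal differentiation, went from 42.4, 39.3 and 39.9 CPM to 57.7, 65.9 and 63.9 CPM (0.63 ± 0.08, adjusted p = 1.24e-08). The fed and starved libraries of these 3 genes did not overlap.

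KRAB-pattern genes were also among the rises. ZNF836 went from 4.02, 4.71 and 4.33 CPM to 11.1, 9.14 and 9.87 CPM (log2 fold change 1.19 ± 0.16, adjusted p = 3.64e-08). ZNF274 (chr19:58183029-58213562, plus strand), which is known to bring SETDB1 to the 3′ ends of ZNF genes, went from 17.6, 17.7 and 17.1 CPM to 27.9, 28.8 and 24.9 CPM (0.64 ± 0.09, adjusted p = 1.21e-07). Both had starved libraries above all fed ones. ZNF701 (1.31), ZNF461 (0.92) and ZNF699 (0.78), with the pattern, rose as well. So did ZNF653 (0.89) and ZNF787 (0.83), which have no KRAB match.

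**Figure D2:**
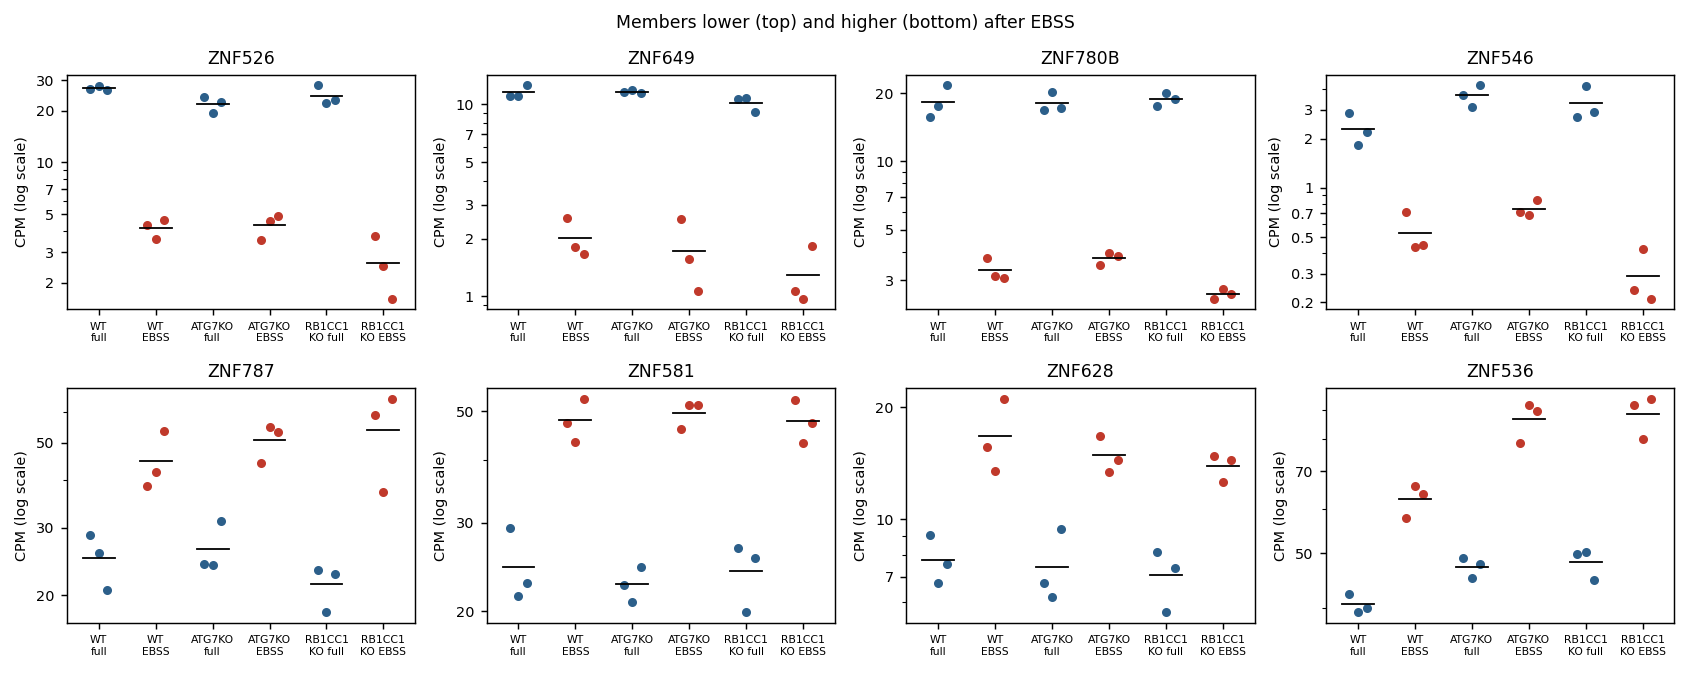
CPM on a log axis for 4 members that fell (top) and 4 that rose (bottom) after EBSS, in the 6 groups. Points are libraries (blue full medium, red EBSS) and black lines are means of 3; in each line the starved libraries of the top genes lie below the fed ones (ZNF526 at 1.62 to 4.88 CPM) and those of the bottom genes above them.

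The response was shared by the 3 lines, whose EBSS comparisons have no library in common. In ATG7KO 109 members fell and 22 rose, with a median log2 fold change of -0.53, where 30.6% of all genes fell and 32.3% rose. Falls of at least 2-fold were called for 54 and rises for 8 (9.66% and 9.52% of all genes). In the RB1CC1KO-labelled line 137 fell and 22 rose, with a median of -0.89, where 33.3% of all genes fell and 31.9% rose. There, 85 fell and 7 rose at least 2-fold (11.9% and 9.59% of all genes). There were 99 members that fell in all 3 lines (53.2% of members; 23.3% of all genes), and 44 of them fell at least 2-fold in each (6.53% of all genes). The number that rose in all 3 was 16, where 25.2% of all genes did. Of the members, 14 (7.53%) were called in no line, a count that was not made over all genes.

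In ATG7KO the 5 lowest log2 fold changes named by the rule were those of ZNF649 (-2.62 ± 0.20), ZNF324B (-2.59 ± 0.21), ZNF816 (-2.56 ± 0.28), ZNF526 (-2.39 ± 0.16) and ZNF112 (-2.37 ± 0.29). In the RB1CC1KO-labelled line they were those of ZNF441 (-3.61 ± 0.31), ZNF546 (-3.38 ± 0.33), ZNF526 (-3.20 ± 0.16), ZNF649 (-3.04 ± 0.20) and ZNF112 (-2.90 ± 0.28). All 10 values had an adjusted p below the threshold in edgeR's test, the highest being 1.65e-08 for ZNF112 in ATG7KO. The value of ZNF816 in the RB1CC1KO-labelled line went from -2.89 to -3.84 without RB1CC1KO EBSS replicate 2.

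Rises in all 3 lines were called for ZNF274, ZNF414, ZNF444, ZNF461, ZNF507, ZNF536, ZNF568, ZNF569, ZNF581, ZNF585B, ZNF628, ZNF653, ZNF699, ZNF701, ZNF787 and ZNF836. The rise was at least 2-fold in each line for ZNF701, ZNF585B and ZNF568 (6.98% of all genes passed this rule), and these 3 were near the limit of detection. ZNF701 stood at 0.292, 0.595 and 0.945 CPM in WT in full medium and at 1.56, 1.44 and 1.54 CPM after EBSS. ZNF585B stood at 0.219, 0.198 and 0.472 CPM and then at 1.35, 0.876 and 0.705 CPM. Both had starved libraries above the fed ones in WT.

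ZNF568, whose mouse counterpart represses a placental transcript of Igf2, had 2 reads over the fed WT libraries and 16 over the starved ones, which is a ratio of 8.15 (95% exact counting interval 1.92 to 73.1). In ATG7KO it had 3 and then 27 reads, a ratio of 13.5 (4.16 to 69.7), and its fitted log2 fold change there moved from 3.55 to 4.43 without ATG7KO full replicate 3. Intervals of this kind cover counting error only. The fed libraries of WT and ATG7KO held too few reads of ZNF568 to count towards the read filter. It therefore became a member through other libraries, and the part of this selection in its rise was not tested. The call of ZNF568 in WT was lost without WT EBSS replicate 2, and its log2 fold change moved from 2.82 to 5.48 without WT full replicate 2, a fitted value that is no bound, since no read of the gene is left in the fed group. ZNF555 was the member called in opposite directions: it rose in WT (0.37 ± 0.14, adjusted p = 0.0218) and fell in the RB1CC1KO-labelled line (-0.33 ± 0.14, adjusted p = 0.033, edgeR). It was named after its values were seen.

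Members with and without the KRAB pattern are described side by side, as counts without a test. Of 152 with the pattern, 99 fell and 15 rose in WT, with a median log2 fold change of -0.60. Of 34 without it, 13 fell and 9 rose, with a median of -0.13. In the RB1CC1KO-labelled line the pattern-bearing members had 121 lower and 12 higher (median -1.07), and the others 16 lower and 10 higher (median -0.17). The 2 classes also differed in level, with a median of 1.45 and 3.54 CPM per kb, and the part of level in these counts was not tested. By level alone, the 62 members with the highest level had a median of -0.22 in WT, the 62 in the middle -0.65 and the 62 lowest -0.66. Level in this paragraph is the mean over all libraries, fed and starved, and not the level in WT in full medium given above. A fall after EBSS itself lowers this mean, so these medians cannot show how the response depends on level.

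Members were also counted by number of fingers, without a test. Of 25 members with 0 to 7 fingers, 9 fell and 9 rose in WT (median -0.02). Of 57 with 8 to 11 fingers, 33 fell and 5 rose (median -0.42). With 12 to 15 fingers, 40 of 60 fell and 6 rose (median -0.60), and with 16 or more, 30 of 44 fell and 4 rose (median -0.61). Median levels over all libraries were 2.59, 1.47, 1.45 and 1.56 CPM per kb in this order of classes. The finger classes also overlap with the KRAB classes above. The parts of finger number, KRAB pattern and level in these counts were not tested. Promoter classes were counted in the same way. Members whose window held the ZNF143 motif had 20 of 30 lower and 4 higher in WT (median -0.63), against 78 of 136 lower and 20 higher (median -0.45) for those without it. Members at or above the median CpG number had a median of -0.46 and those below it -0.48. Of the 20 members with no matched promoter 14 fell and none rose in WT, 11 of them at least 2-fold, with a median of -1.04. In ATG7KO 14 fell (8 at least 2-fold) and 1 rose, and in the RB1CC1KO-labelled line 14 fell (10 at least 2-fold) and 1 rose. These falls are 70% of the class in each line, where 60.2% of all members fell in WT, 58.6% in ATG7KO and 73.7% in the RB1CC1KO-labelled line.

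Along the chromosome the members were divided into 16 blocks wherever consecutive annotated ZNF genes started more than 1 megabase apart. Block 10 (chr19:39984134-40090938), which holds ZNF546, ZNF780B and ZNF780A, had all 3 lower in WT, with a median log2 fold change of -2.09. All 5 members of block 8 (chr19:34677639-34964049, ZNF302 to ZNF792) fell, with a median of -0.99. ZNF536 and ZNF507, each alone in its block, rose by 0.63 and 0.37 on the log2 scale. Block 9 (chr19:36182060-37817300) was mixed, with 9 of 23 lower and 6 higher (median -0.10). The 51 members of the last block (chr19:55476332-58481230, ZNF628 to ZNF446) had 29 lower and 8 higher (median -0.47). The falls were thus spread over most blocks, and members of one block need not move alike.

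**Figure D3:**
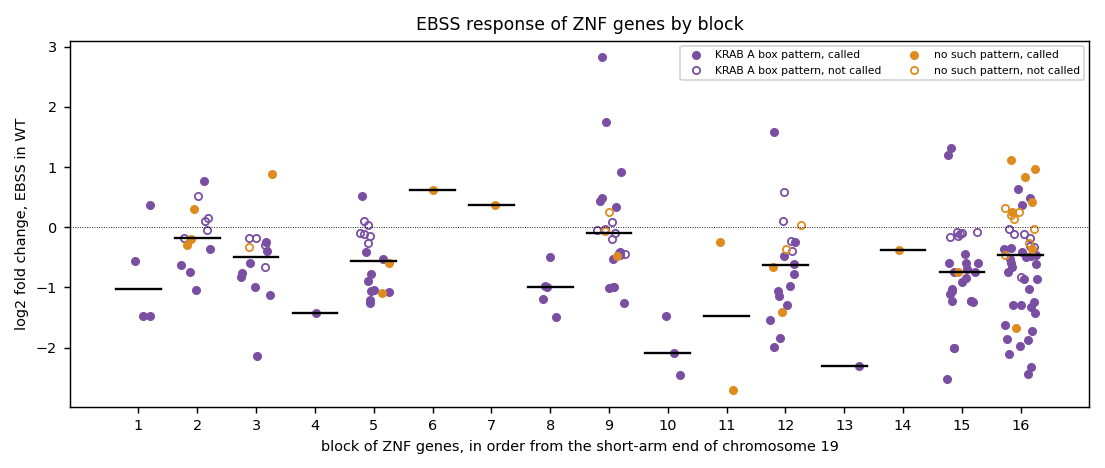
Log2 fold change of EBSS against full medium in WT (vertical axis) for each of the 186 members, by block from the short-arm end of chromosome 19 (horizontal axis). Filled points were called, open points were not, purple marks a match to the KRAB pattern and orange none, and black lines are block medians, the lowest of the blocks with 3 or more members being -2.09 in block 10.

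Most called cofactors of KRAB proteins rose. From a list of 38 cofactors (TRIM28, SETDB1 and its partners, heterochromatin proteins, the NuRD complex and others), 34 were tested, and 18 rose and 6 fell in WT after EBSS with a median log2 fold change of 0.19, where 32.4% of all genes rose and 32.1% fell. With upper-quartile scaling 13 rose and 10 fell (median 0.03), where rises made up 37.4% of the calls over all genes. In ATG7KO 17 rose and 6 fell (32.3% and 30.6% of all genes), and in the RB1CC1KO-labelled line 20 rose and 5 fell (31.9% and 33.3%). These became 13 and 10, and 13 and 9, under that scaling, where rises made up 37.2% and 37.0% of all calls. The smallest p in WT belonged to GATAD2B of the NuRD complex (1.23 ± 0.06), ATF7IP, the partner of SETDB1 (0.93 ± 0.08), the histone chaperone DAXX (0.63 ± 0.06) and TRIM33 (0.62 ± 0.07). TRIM28 rose by 0.50 ± 0.07 on the log2 scale in WT (adjusted p = 3.71e-08), by 0.73 ± 0.07 in ATG7KO and by 0.76 ± 0.07 in the RB1CC1KO-labelled line. MORC2, which acts with the HUSH silencing complex, fell by 1.07 ± 0.07 in the RB1CC1KO-labelled line (adjusted p = 5.28e-15).

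In full medium few members differed between the lines, some of them by large amounts. ATG7KO had 3 members higher and 2 lower than WT, where 4.47% and 6.07% of all genes were called. The RB1CC1KO-labelled line had 6 higher and 9 lower, where 8.3% and 8.87% of all genes were called. The members' shares lay below those of all genes in both lines and both directions. The members also had lower levels (median 2.17 against 4.56 CPM per kb in WT in full medium), and fewer reads make a call harder. The part of level in these shares was not tested. ZNF329 was the only member called higher in both lines, and ZNF544 the only one called lower in both (0.538% of members each). Of all 15179 genes tested, 189 were called higher in both lines and 231 lower in both. The 2 comparisons share the WT libraries.

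ZNF329 (chr19:58126252-58155110, minus strand), with 12 fingers and no KRAB match, stood at 1.46, 1.09 and 1.10 CPM in WT in full medium. It stood at 9.91, 8.70 and 7.99 CPM in ATG7KO and at 10.6, 12.9 and 11.3 CPM in the RB1CC1KO-labelled line. The WT libraries lay below all 6 others. The log2 fold changes were 2.87 ± 0.20 (adjusted p = 2.42e-13) and 3.26 ± 0.20 (adjusted p = 2.96e-15). After EBSS the gene stood at 0.638, 1.19 and 0.769 CPM in WT, 8.08, 6.45 and 7.002 CPM in ATG7KO and 7.88, 5.72 and 5.77 CPM in the RB1CC1KO-labelled line. The difference from WT was thus found in both media (3.03 ± 0.23 and 2.87 ± 0.23 after EBSS), and the fall on EBSS passed the test in the RB1CC1KO-labelled line (-0.85 ± 0.15). The values in WT (-0.46 ± 0.31) and ATG7KO (-0.30 ± 0.16, adjusted p = 0.106) did not pass, but that in ATG7KO passed with upper-quartile scaling and without ATG7KO EBSS replicate 1 (-0.47 to -0.21 over all settings). The difference between the RB1CC1KO-labelled line and WT in this response did not pass (-0.39 ± 0.35, adjusted p = 0.559).

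ZNF544 (chr19:58228594-58277495, plus strand), a KRAB-pattern gene with 12 fingers, showed the opposite. It stood at 6.80, 7.09 and 10.3 CPM in WT in full medium, at 0.111, 0.216 and 0.0624 CPM in ATG7KO and at 0.0590, 0.0563 and 0.0607 CPM in the RB1CC1KO-labelled line. Every knockout-labelled library was close to 0. The WT libraries held 367 reads of the gene and the RB1CC1KO-labelled ones 3, a ratio of 135 (95% exact counting interval 45.7 to 656). In ATG7KO the log2 fold change was -5.83 ± 0.37 (adjusted p = 9.54e-15). After EBSS 147 reads in WT stood against 1 in each knockout-labelled line, ratios of 112 (19.8 to 4467) in ATG7KO and 176 (31.1 to 6999) in the RB1CC1KO-labelled line. Each of these ratios rests on 1 read in 1 library.

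ZNF329 and ZNF544 are near neighbours on opposite strands, with ZNF274 between them. ZNF274 did not pass the test in either line in full medium (-0.08 ± 0.09, adjusted p = 0.674 in ATG7KO, and -0.10 ± 0.09, adjusted p = 0.519 in the RB1CC1KO-labelled line). On the other side of ZNF329 lie ZSCAN18 and ZNF606. In the RB1CC1KO-labelled line ZSCAN18 rose by 0.72 ± 0.17 on the log2 scale (adjusted p = 0.00178) and ZNF606 fell by 0.95 ± 0.20 (adjusted p = 0.000701). Neither passed the test in ATG7KO (0.06 ± 0.18 and 0.13 ± 0.18). Beyond ZNF544 lie AC020915.1 and ERVK3-1, which passed in neither line in full medium. Their values were -0.18 ± 0.38 and -0.13 ± 0.12 in ATG7KO, and -0.34 ± 0.39 and -0.18 ± 0.12 in the RB1CC1KO-labelled line. ERVK3-1 was lower than in WT after EBSS in ATG7KO (-0.49 ± 0.14) and the RB1CC1KO-labelled line (-0.35 ± 0.13), where AC020915.1 did not pass. The large opposite changes therefore flanked a gene without a detected one.

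ZNF492 (chr19:22634324-22667670, plus strand), with 12 fingers, was low in ATG7KO. It stood at 4.60, 4.46 and 6.06 CPM in WT, at 0.390, 0.162 and 0.250 CPM in ATG7KO and at 6.02, 7.38 and 8.01 CPM in the RB1CC1KO-labelled line in full medium. The ATG7KO libraries lay below all others, with a log2 fold change of -4.19 ± 0.30 against WT (adjusted p = 1.91e-13). Against the RB1CC1KO-labelled line the gap was 4.70 ± 0.28 (adjusted p = 6.83e-16). Of its 75-base stretches 24.5% also occur in another gene, so part of its reads may have been lost or shared. The nearest tested protein-coding genes on its 2 sides are ZNF100 (chr19:21722766-21767628) and ZNF730 (chr19:23075210-23147219), neither of them adjoining it. ZNF100 (0.03 ± 0.10) and ZNF730 (-0.70 ± 0.25, adjusted p = 0.0732) did not pass the test in ATG7KO. ZNF492's neighbours were added after its value was seen.

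ZNF841 (chr19:52064466-52095765, minus strand), a KRAB-pattern gene with 20 fingers, was high in ATG7KO. Its libraries stood at 7.68, 9.19 and 7.42 CPM there, against 2.92, 3.03 and 3.70 CPM in WT and 2.59, 3.38 and 1.88 CPM in the RB1CC1KO-labelled line. Both other lines lay below ATG7KO, with a log2 fold change of 1.34 ± 0.22 against WT (adjusted p = 3.03e-05). ZNF599 (0.79 ± 0.23, adjusted p = 0.0185) was the third member called higher in ATG7KO, and its call was lost without ATG7KO full replicate 2 and without any one of the WT full replicates (0.71 to 0.86 over all settings).

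**Figure D4:**
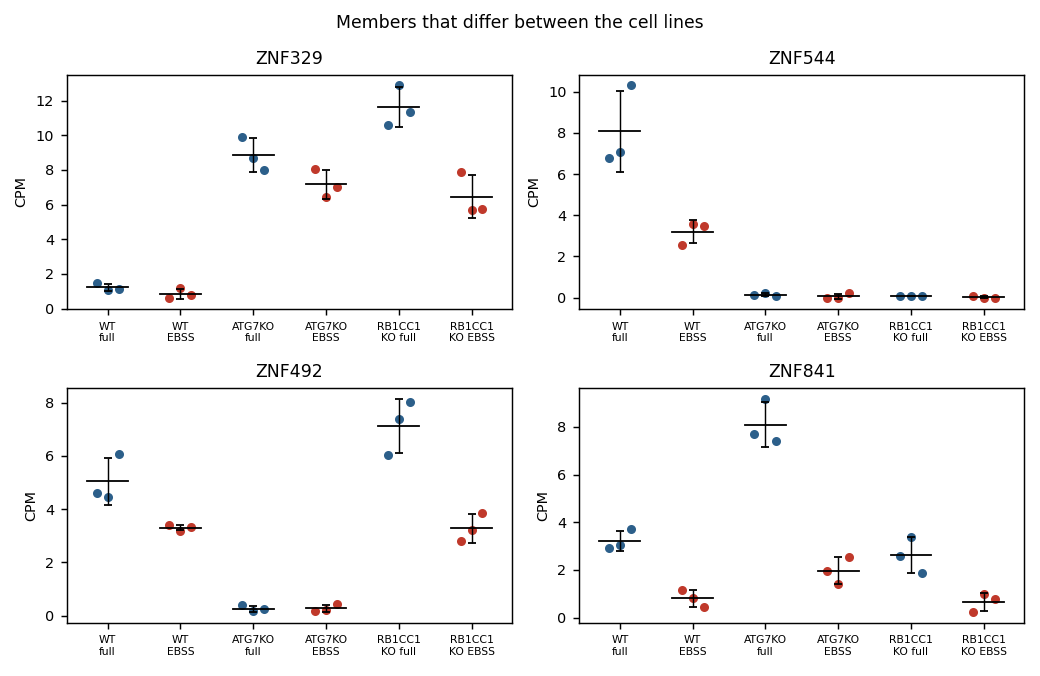
CPM of ZNF329, ZNF544, ZNF492 and ZNF841 in the 6 groups. Points are libraries (blue full medium, red EBSS), with the mean and SD of 3 in black; ZNF329 is near 1 CPM only in WT, ZNF544 is near 0 in both knockout-labelled lines, and ZNF492 is near 0 and ZNF841 highest in ATG7KO.

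In the RB1CC1KO-labelled line the other falls were smaller. ZNF441 went from 6.14, 6.30 and 5.91 CPM in WT to 2.77, 3.15 and 2.37 CPM (log2 fold change -1.14 ± 0.18, adjusted p = 1.08e-05), with no overlap. ZNF772 went from 12.4, 12 and 11.5 CPM to 6.66, 9.06 and 6.01 CPM (-0.72 ± 0.14, adjusted p = 0.000315). ZNF563 (-1.21 ± 0.34), ZNF358 (-0.47 ± 0.12), ZNF506 (-0.45 ± 0.12) and ZNF440 (-0.45 ± 0.15) were also lower. The call of ZNF440 was lost without any one of the 6 libraries compared (-0.49 to -0.43 over all settings). That of ZNF563 was lost without RB1CC1KO full replicate 3 (-1.50 to -1.11) and that of ZNF358 without WT full replicate 1 (-0.54 to -0.35). The ninth member called lower was ZNF665, with 34 reads over the WT libraries and 2 over the RB1CC1KO-labelled ones, a ratio of 18.7 (95% exact counting interval 4.79 to 161), named after its values were seen.

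Besides ZNF329, the members called higher and named by the rule in that line were ZNF671 (0.72 ± 0.19, adjusted p = 0.006), ZNF566 (0.35 ± 0.12), ZNF536 (0.26 ± 0.08) and ZNF146 (0.22 ± 0.07). The last 3 were small changes whose calls were not kept in every setting. The call of ZNF566 was lost with upper-quartile or RLE scaling, with DESeq2, without robust estimation, and without RB1CC1KO full replicate 2 or 3 or any WT full replicate (0.26 to 0.38). That of ZNF536 was lost without RB1CC1KO full replicate 1 or 2 or WT full replicate 2 or 3 (0.21 to 0.29). That of ZNF146 was lost without RB1CC1KO full replicate 2 or 3 or WT full replicate 1 (0.16 to 0.26). The sixth was ZNF492 (0.51 ± 0.17, adjusted p = 0.0382, edgeR), whose groups overlapped. The count of 6 went to 2 without RB1CC1KO full replicate 2 and to 3 without RB1CC1KO full replicate 3 or WT full replicate 1. Between the 2 knockout-labelled lines in full medium, 3 members were higher in the RB1CC1KO-labelled line (11.4% of all genes) and 12 lower (9.99%), led by ZNF492 and, among members named by the rule, by ZNF841 (-1.62 ± 0.22). The 2 others higher were ZNF671 (0.89 ± 0.19) and ZNF730 (0.75 ± 0.25). The call of ZNF730 was lost with DESeq2 and without RB1CC1KO full replicate 1 or 2 or ATG7KO full replicate 1 or 3 (0.63 to 0.87). The 12 became 7 without ATG7KO full replicate 2.

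After EBSS ATG7KO still differed little from WT, with 5 members higher and 4 lower, where 6.07% and 7.17% of all genes were called. The 5 were ZNF329, ZNF599 (1.66 ± 0.30), ZNF841 (1.20 ± 0.37), ZNF536 (0.47 ± 0.08) and ZNF507 (0.26 ± 0.07). The 4 were ZNF544, ZNF492 (-3.80 ± 0.37), ZNF283 (-0.54 ± 0.18) and ZNF780A (-0.47 ± 0.14). Without ATG7KO EBSS replicate 1 they became 3 and 7, and without ATG7KO EBSS replicate 2 or 3 or WT EBSS replicate 1 only 2 were lower. The call of ZNF841 was lost without ATG7KO EBSS replicate 1 or 3 or WT EBSS replicate 2 or 3 (0.91 to 1.51 over all settings), and that of ZNF507 without replicate 1 of either group (0.21 to 0.30). Those of ZNF283 (-0.75 to -0.39) and ZNF780A (-0.54 to -0.42) were lost in the fit of the compared groups and without ATG7KO EBSS replicate 2 or 3 or WT EBSS replicate 1. ZNF283 also lost its call without WT EBSS replicate 2, and ZNF780A with no filter on low counts. The RB1CC1KO-labelled line had 65 members lower and 6 higher than WT after EBSS, where 16.9% and 14.8% of all genes were called. The median member stood at -0.32 there and the median gene at 0.00. Among ZNF genes of other chromosomes 64 of 224 were lower and 20 higher (median -0.13). ZNF441 (-2.61 ± 0.36), ZNF772 (-1.66 ± 0.23) and ZNF606 (-1.46 ± 0.29) were among the lowest, and ZNF536 was higher (0.50 ± 0.07).

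The difference of the EBSS response between lines was tested as an interaction. For ATG7KO against WT 1 member passed, ZNF780A, and none was higher, where 0.685% and 0.369% of all genes passed. For the RB1CC1KO-labelled line against WT 30 members had a lower response and 2 a higher one, where 5.47% and 2.68% of all genes passed. The median difference of the members was -0.34 and that of all genes -0.02. All but 2 of the 30 carry the KRAB pattern, which 152 of the 186 members do. The count of 30 became 21 in a fit of the compared groups alone and ranged from 14 to 42 with single libraries left out. It was 14 without RB1CC1KO full replicate 2 and 18 without RB1CC1KO EBSS replicate 1, WT EBSS replicate 1 or WT EBSS replicate 2. ZNF genes of other chromosomes had 37 of 224 lower and 5 higher, with a median of -0.16.

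ZNF780A (chr19:40069152-40090938, minus strand), the neighbour and paralogue of ZNF780B, showed the smallest p among the members named here. It stood at 17.8, 19.8 and 19.7 CPM in WT in full medium and at 7.52, 6.44 and 6.79 CPM after EBSS. In ATG7KO it went from 20.8, 23.7 and 21.5 CPM to 5.23, 4.96 and 4.46 CPM, and in the RB1CC1KO-labelled line from 19.8, 21.4 and 20.2 CPM to 2.90, 2.92 and 2.81 CPM. The starved libraries of the 3 lines did not overlap, with WT highest and the RB1CC1KO-labelled line lowest. The response differed from that of WT by -1.36 ± 0.17 (adjusted p = 1.95e-06) in the RB1CC1KO-labelled line and by -0.67 ± 0.17 (adjusted p = 0.0386) in ATG7KO. The second of these calls was lost in 10 of 19 other settings (-0.75 to -0.61): with no filter on low counts and without any one of ATG7KO EBSS replicates 2 and 3, the 3 ATG7KO full replicates, WT EBSS replicates 1 and 2, and WT full replicates 1 and 3.

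ZNF345 showed a fall in the RB1CC1KO-labelled line that was not detected elsewhere. It went from 2.83, 3.04 and 3.22 CPM to 1.36, 0.974 and 1.48 CPM there, and from 2.85, 1.74 and 2.68 CPM to 3.12, 2.44 and 2.95 CPM in WT. The WT groups overlapped and those of the RB1CC1KO-labelled line did not. In ATG7KO the log2 fold change was -0.35 ± 0.25 (adjusted p = 0.219, edgeR). The difference of the responses between the RB1CC1KO-labelled line and WT was -1.54 ± 0.35 (adjusted p = 0.00383). ZNF441 (-1.47 ± 0.42), ZNF416 (-1.28 ± 0.26) and ZNF615 (-1.18 ± 0.30) fell in WT and fell further in the RB1CC1KO-labelled line. ZNF358 (0.55 ± 0.17) and ZNF580 (0.49 ± 0.14) were the 2 members with a higher response, and both lack the KRAB match. The calls of ZNF358 (0.43 to 0.69 over all settings) and ZNF580 (0.43 to 0.63) were lost without RB1CC1KO EBSS replicate 1 or 3, RB1CC1KO full replicate 2, WT EBSS replicate 1 or 2, or WT full replicate 1. That of ZNF441 (-1.64 to -1.30) was lost without RB1CC1KO EBSS replicate 1 or 3, RB1CC1KO full replicate 2 or WT EBSS replicate 1, and with no filter on low counts.

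**Figure D5:**
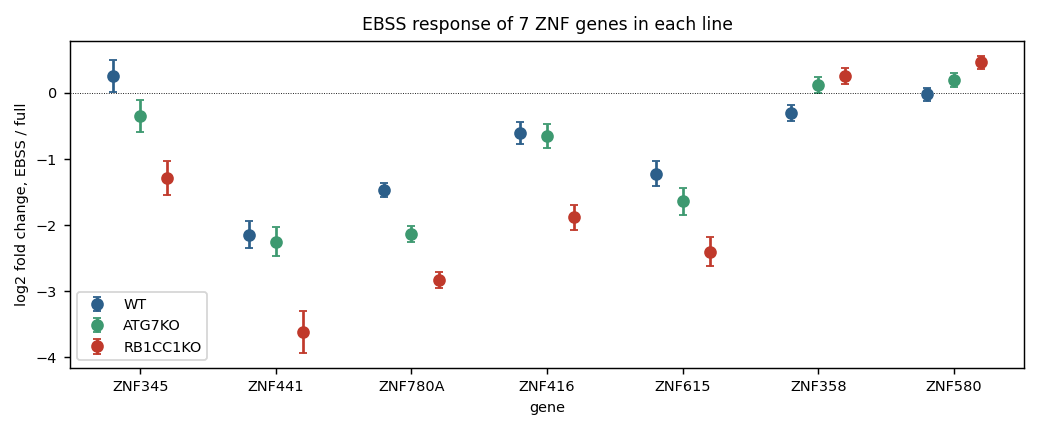
Log2 fold change of EBSS against full medium (vertical axis) of 7 members whose response differed between the RB1CC1KO-labelled line and WT. Points are the 3 lines and bars the error from the test; ZNF780A lies at -1.47 in WT, -2.14 in ATG7KO and -2.82 in the RB1CC1KO-labelled line.

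Sequence shared with another gene, through near-identical copies or overlapping genes, limits what can be said of single genes. For each member the share of its 75-base stretches (the read length) that also occur in another annotated gene was computed. The median share was 0.0711%, 92 members had none and 26 had over 10%. The 3 members over 50% were ZNF468 (99.2%), ZNF490 (70.7%) and ZNF724 (52.6%). Members named above with over 10% included ZNF585B (21.1%), ZNF581 (14.4%), ZNF324B (13.2%), ZNF112 (10.9%) and ZNF17 (10.8%). The other 160 members had 97 lower and 18 higher after EBSS in WT, 97 and 16 in ATG7KO and 119 and 17 in the RB1CC1KO-labelled line. This subset was chosen after the data were seen.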

How the data were processed

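Polyadenylated RNA of 18 libraries was measured. Per the labels' protocols, a directional library kit was used and reads were single-end, 75 bp long. The authors deposited whole-number read counts per gene, without normalization, for 63677 Ensembl identifiers. Per the submitters' processing notes, the tools included HTSeq 0.6.1p1 and STAR 2.4.2a, besides Picard and both edgeR and DESeq2, and the build was GRCh37 (hg19); no roles are given. For the strand setting, the annotation release and read filters, the value is not given in the sources used here. Antisense or overlapping genes and near-identical copies are therefore uncertain. The 5 summary lines of each table were left out.

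Names, chromosomes, exon lengths and gene coordinates come from GENCODE 29 (GRCh38), which matched 52526 identifiers. This is another build than the notes name, so coordinates are those of GRCh38 only. Fingers (C, 2 to 4 residues, C, 12 residues, H, 3 to 5 residues, H) and KRAB A box patterns were sought in the longest GENCODE coding sequence, in place of the RefSeq proteins first planned. Promoters come from RefSeq (GRCh38.p14).

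The counts were fitted with edgeR 4.0.16 (filterByExpr, TMM, 6 group means, robust quasi-likelihood, 12 residual degrees of freedom) over 15179 genes in R 4.3.3, with limma 3.58.1. Levels are TMM-scaled CPM. All adjusted p-values are from edgeR's quasi-likelihood F test with Benjamini-Hochberg adjustment. The same model was tested on simulated data, where false calls exceeded the nominal share in most draws. The 10 comparisons were those of media within a line, lines within a medium, and differences of the EBSS response. The alternatives were upper-quartile and RLE scaling, no filter, DESeq2 1.42.0, fits of the compared groups, non-robust fits, a replicate block, single libraries left out and stricter expression limits.

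Named members are those called with the largest changes (mean log2 CPM of at least 0, groups not overlapping, up to 10 per direction in EBSS in WT and each line against WT, and 5 elsewhere), ZNF329, members changed 2-fold in all 3 EBSS responses, the 5 highest per kb, genes at the read filter, the nearest tested neighbours, and 4 cofactors per comparison by p. Cofactor and marker lists were taken whole. The members and lists were chosen with earlier results of these data known. The KRAB pattern, finger classes, the 6 motifs and the shared-stretch measure were set after the data were seen. Reads of a gene with 1 to 3 reads in a group are given as a ratio with a 95% exact counting interval.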

Additional observations from a re-analysis of the deposited data

Results flagged for a closer look

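Members were singled out here where the response to EBSS differed between 2 lines by the interaction test of edgeR (adjusted p from Benjamini-Hochberg over all genes). ZNF780A responded differently in ATG7KO and WT, by -0.67 on the log2 scale (adjusted p = 0.0386), and in the RB1CC1KO-labelled line and WT, by -1.36. Between the RB1CC1KO-labelled line and WT the response also differed for ZNF345 (-1.54), ZNF441 (-1.47), ZNF416 (-1.28) and ZNF615 (-1.18), and in the other direction for ZNF358 (0.55) and ZNF580 (0.49). For every gene, and not only these 7, the starved libraries of the RB1CC1KO-labelled line include the deepest one (replicate 2, 26005942 reads in genes). None of the 7 calls for that line was lost without this library. The calls of ZNF345, ZNF416 and ZNF615 and that of ZNF780A in the RB1CC1KO-labelled line kept their side of the threshold in all settings run.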

How the results depend on the processing

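The counts of members lower or higher after EBSS in the 3 lines stayed within 1.5 times their value in all settings run, and of 117 named values 92 kept their call in every setting. Smaller counts moved. For ATG7KO against WT in full medium, 3 higher became 6 with upper-quartile scaling, 8 with the compared groups fitted alone and 1 among members with 10 reads in all libraries. The 2 lower became 4 with the compared groups, 0 with 10 reads in all libraries, 1 above the stricter level limit (mean log2 CPM 1) and 1 among members with few shared stretches (added after the data were seen). With 10 reads in all libraries, the 9 lower in the RB1CC1KO-labelled line became 5. Between the knockout-labelled lines, 3 higher became 5 with the compared groups, 7 with the replicate block and 1 with 10 reads in all libraries, where 12 lower became 6. After EBSS in ATG7KO against WT, 5 higher became 3 with 10 reads in all libraries, and 4 lower became 2 there and with the compared groups. The 1 member of the interaction for ATG7KO became 0 with no filter, and the 2 higher for the RB1CC1KO-labelled line became 1 among members with few shared stretches.

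With single libraries left out, the RB1CC1KO-labelled line in full medium had 2 to 6 higher, and the lines compared with each other 7 to 11 lower. After EBSS ATG7KO had 3 to 5 higher and 2 to 7 lower than WT. The interaction for ATG7KO had 0 to 2 lower, and that for the RB1CC1KO-labelled line 0 to 4 higher and 14 to 42 lower. The interaction of ZNF329 for ATG7KO, never called in the main analysis (0.16), ranged from -0.023 to 0.47, with its sign turned without WT EBSS replicate 1. The cause of these shifts was not tested, apart from the stricter read limits, which leave fewer members (143 and 167).

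Replicate numbers showed no clear pairing of the libraries, though such correlations cannot establish that there is none. Deviations of libraries with the same number correlated from -0.132 to 0.221, over 0.1 in 5 of 45 pairs, and those with different numbers in 8 of 90. With the replicate block, 112 members were lower and 23 higher after EBSS in WT, and 37 lower and 3 higher in the interaction for the RB1CC1KO-labelled line. Depth limits ZNF568, ZNF585B, ZNF665 and ZNF544, with few reads in at least 1 group.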
